A study of Rattus norvegicus with 6 samples.

Results

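The DQ6 block is the set of piRNA probes whose GenBank accession runs from DQ600000 to DQ699999. The accession alone chose its 15191 members, which make up 38.2% of the 39727 DQ probes and stand among 39886 non-control probes on the array. The remaining 24536 DQ probes, all numbered DQ700000 or above, served as background. PIWI-interacting RNAs (piRNAs) are short RNAs that guide PIWI proteins to complementary transcripts, and in the mammalian germline they are known for silencing transposons. Many are cut from long single-stranded precursors, so that piRNAs of the same cluster can lie side by side in the genome.

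The samples were islet total RNA from Wistar rats, the control strain, and from Goto-Kakizaki (GK) rats, a lean model of type 2 diabetes derived from Wistar stock. Each strain gave 3 samples at 3 months of age, each hybridised to its own array, and the labels name no other allele, treatment or agent. The labels do not say whether a sample came from 1 animal, so the p-values measure the spread between these samples. None of 32 marker genes and miRNAs of islet, acinar, duct, endothelial, immune or germline cells had a probe, so cell makeup was not tested. In bulk RNA, fewer cells of a type and less RNA per cell cannot be told apart.

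The signal is the scanner's background-subtracted brightness in arbitrary units, and a probe counts as detected where the scanner software called it well above background. Differences between strains are log2 values after each array was scaled to its 75th percentile over 7794 always detected probes. The 3 Wistar arrays and GK 1 were scanned together, and GK 2 and GK 3 together in another scan. Arrays of a common scan are here called slide 1 and slide 2, an inference from the scan headers. GK 2 stood apart in its low signals, with a median of 8.43 over the DQ6 block against 2.53 to 3.48 on the other 5 arrays. Wistar 3 stood apart in single bright probes, as described below. No DQ6 spot was saturated.

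The islets of both strains gave a detectable signal at 24.8% to 37.3% of the DQ6 probes per array. The Wistar arrays detected 3773, 4335 and 4648 of these piRNA probes, whereas the GK arrays detected 4481, 5649 and 4067. GK 2 lay highest and the other 2 GK arrays lay within the Wistar range. The GK arrays averaged 31.2% ± 5.43 (SD, n = 3), while the Wistar arrays averaged 28.0% ± 2.92 (SD, n = 3). The difference of 3.19 percentage points was smaller than the spread between the GK arrays and gave p = 0.5 when the strain labels were permuted exactly (two-sided; 3 against 3 arrays cannot go below 0.1). Without GK 2 the difference was 0.15 points, and within slide 1 GK 1 lay 1.52 points above the Wistar mean.

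The same probes tended to be detected throughout. Of the DQ6 probes 3025 (19.9%) were detected on all 6 arrays, 7993 (52.6%) on none, and 2245 (14.8%) on a single array. Of those seen on a single array, 1586 were seen on GK 2. Among the remaining DQ probes the shares were 19.1% on all arrays, 54.1% on none and 13.9% on a single array.

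The DQ6 probes were slightly more often detected and slightly brighter than the remaining DQ probes, and the gap was widest among bright probes. Detection was higher in the block on each of the 6 arrays, by 0.0753 points on GK 1, 0.233 on Wistar 3, 0.418 on GK 3, 0.564 on Wistar 2, 0.751 on Wistar 1 and 1.85 on GK 2. The mean gap was 0.648 points ± 0.633 (SD, n = 6), and without GK 2 it was 0.408. The median log2 signal was higher in the block by 0.12 ± 0.05 (SD, n = 6), again on all 6 arrays. These medians lay below the lowest signal called on the same array (8.07 to 13.4), so they describe probes that were not detected. Among always detected probes the level gap was 0.10, also on all 6 arrays. With normexp, another background correction, the level gap over all DQ probes was 0.0096 (exact sign permutation p = 0.125). Normexp adds an offset of 50, well above the block's median signals of 2.53 to 8.43, which by itself shrinks gaps between dim probes. The normexp value therefore cannot test the level gap. The detection gap and the level gap over all DQ probes each had p = 0.0312 in a two-sided exact sign permutation test over arrays. That is the smallest p that 6 arrays allow. Adjusted over the 9 tests of this family the p was 0.0703, so neither passed. All 6 arrays carry the same probes, so these tests measure how steady the gap was over arrays.

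At the bright end, the 99th percentile of signal in the block was 3659, 2620 and 2933 in Wistar and 2942, 2062 and 2067 in GK. The same percentile of the remaining DQ probes stood at 2842, 2070 and 2049 in Wistar and at 2035, 1445 and 1466 in GK. The block was higher on every array, by a mean log2 gap of 0.46 ± 0.08 (SD, n = 6). Probes with a signal above 1000 made up 1.58% to 2.42% of the block and 1.27% to 1.86% of the remaining DQ probes. These comparisons of bright probes were chosen after their values were seen, and each again had p = 0.0312 in the exact sign permutation test (0.0703 adjusted over the family of 9). Between the strains these gaps gave p from 0.2 to 0.9 in exact permutation tests, which cannot go below 0.1 with 3 against 3 arrays and so could not have passed. The gap at the 99th percentile, for example, was 0.51 ± 0.02 in GK and 0.41 ± 0.10 in Wistar (log2, SD, n = 3 each).

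Few probes carried most of the light. With 38.2% of the DQ probes, the DQ6 block held 50.3% to 54.5% of the summed DQ signal on each array. Its 10 brightest probes held 30.8% to 34.7% of the block's signal and its 100 brightest 74.3% to 80.3%. Of the 100 DQ probes with the highest mean level, 53 belonged to the block. Brightness says how much labelled RNA bound a probe, and different probes bind with different strength, so an order of probes by brightness is not an order of piRNA abundance.

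The brightest members were the same in both strains apart from the last place of the list of 5. The probe for DQ610113 gave signals of 319325, 270661 and 281874 in Wistar and 290295, 205025 and 246191 in GK. DQ611922 gave 168203, 129648 and 117866 in Wistar and 159303, 126668 and 146452 in GK. DQ617231 gave 163671, 115289 and 157001 in Wistar and 139428, 108062 and 101191 in GK. In these unscaled signals the ranges of the strains overlapped for each of the 3, and on the scaled values for DQ610113 and DQ617231 but not for DQ611922. DQ614404 followed, at 98812 to 117421 in Wistar and 95605 to 104517 in GK. The fifth place belonged to DQ614395 in Wistar (83609 to 114257) and to DQ611605 in GK (78139 to 106450). The scaled log2 differences between GK and Wistar lay between 0.06 for DQ617231 and 0.45 for DQ611922 for these 6 piRNAs. Their adjusted p ran from 0.468 to 0.913 in limma, and the sign of each of the 6 small differences turned under at least 1 other scaling between arrays.

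The accession range is not even. Nearly all members, 15173, are numbered DQ601959 to DQ628522, and the other 18 lie scattered from DQ684789 to DQ698066. Averaged over arrays, 30.7% of the 4790 probes numbered below DQ610000 were detected, 30.7% of the 5425 from DQ610000 to DQ619999, and 27.4% of the 4958 from DQ620000 on. The last of these ranges was the lowest on each of the 6 arrays. At a finer step of 5000 numbers, chosen after the values were seen and leaving aside the 18 scattered probes, the first 1895 probes (DQ601959 to DQ604999) had the highest share on all 6 arrays, from 29.6% on Wistar 1 to 40.9% on GK 2. The 2891 probes from DQ620001 to DQ624997 had the lowest, from 21.7% to 34.0% on the same arrays. Of the 18 scattered probes only DQ690840 and DQ694361 were detected on all 6 arrays, and 4 were tested between the strains. DQ690840 had signals of 27.9, 20.3 and 19.4 in Wistar and 32.6, 27.5 and 19.3 in GK. DQ694361 had 21.8, 29.5 and 61.0 in Wistar and 41.2, 75.1 and 47.1 in GK. The strains overlapped for both in these signals. On the scaled values they overlapped for DQ694361 and not for DQ690840, whose log2 difference of 0.60 had an adjusted p of 0.456 in limma (0.0386 unadjusted). Both were named after their values were seen.

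Levels of probes with consecutive accession numbers were weakly correlated. Over the 9672 pairs of probes 1 number apart, the correlation of mean scaled levels was 0.29. It was 0.15 at a distance of 2 numbers, 0.09 at 3, 0.04 at 10 and 0.01 at 100. When the first probe of a consecutive pair was detected on all 6 arrays, the second was too in 38.7% of 1949 cases, against 19.9% of probes overall and 21.1% at a distance of 100. The difference between GK and Wistar followed the same course, with a correlation of 0.25 over 1209 tested consecutive pairs and -0.07 at a distance of 100. All points share the same 6 arrays and neighbouring pairs share probes, so no p is given. Spots of consecutive numbers were not close on the slide, with a median of 155 rows and 25 columns between them, much as at a distance of 100 (154 rows and 25 columns). The longest unbroken runs of always detected members held 9 consecutive numbers each, from DQ607116 to DQ607124, DQ614389 to DQ614397 and DQ615076 to DQ615084. The second of these runs holds DQ614395, named above for its brightness.

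Over the 3016 always detected members with a value on every array, the median probe spanned a 2.00-fold range from its lowest to its highest array, and 2.02-fold among the remaining DQ probes. On the log2 scale the median within-strain SD was 0.29 in GK and likewise in Wistar. The arrays correlated at 0.908 to 0.984 over these members. The lowest values all belonged to Wistar 3, which correlated at 0.908 to 0.949 with the other 5 arrays. GK 1 correlated at 0.978, 0.981 and 0.940 with its slide mates Wistar 1, Wistar 2 and Wistar 3. With GK 2 and GK 3 it correlated at 0.958 and 0.967.

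In the sample labelled Wistar 3, a small set of DQ6 piRNAs was far from its level on every other array. Wistar 3 lay more than 4-fold outside the range of the other 5 arrays for 38 always detected members, 23 of them higher and 15 lower. Wistar 1 did so for 1 member and the remaining 4 arrays for 0. These probes were picked after their values were seen. DQ614626 had a signal of 99894 on Wistar 3, against 135 and 325 in the other Wistar samples and 168, 98.4 and 256 in GK. DQ603328 had 125657 on Wistar 3, against 943 and 1487 in Wistar and 633, 317 and 569 in GK. DQ620162 had 49380 there, against 222 to 791 on the other 5 arrays.

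Among the lower probes, DQ603317 had 77.0 on Wistar 3 and 2490 to 4258 elsewhere. Some consecutive accessions were shifted the same way. DQ603763, at row 492, had 74.7 on Wistar 3 against 1619 to 3283 elsewhere, and DQ603764, at row 59, had 88.3 against 2712 to 4815. DQ614175 and DQ614176 were low there in the same way, at 45.0 and 27.7 against 870 to 2159 and 583 to 1506. In total the 38 probes included 5 consecutive pairs, of which 4 went the same way. The part of spot position was not tested. In the pair that did not, DQ623540 stood at 6658 against 34720 to 62665 elsewhere, while its neighbour DQ623541 stood at 1330 against 89.9 to 297. DQ623542 followed DQ623541, at 1562 on Wistar 3 against 81.0 to 338 on the other arrays, and the spots of these 2 lay close together, at rows 86 and 90 and columns 56 and 65. Among the remaining DQ probes 26 of 4667 stood as far apart on Wistar 3 (0.557%), against 1.26% of the members. Of the 38 members 3 had an unadjusted p under 0.05 between the strains in limma, as had 1 of these 26 and 10.8% of all tested probes. The 38 were picked for their Wistar 3 values, which also enter the spread used in that test. None of the 38 or of the 26 is in the authors' deposited list.

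The main comparison asked which members differ between GK and Wistar islets. Of the 4348 DQ6 probes detected on at least 3 arrays, and therefore tested, 2 rose in GK islets and 0 fell at an adjusted p of 0.05 in limma. Over all 11406 tested probes 0.0351% passed as higher, 0.00877% as lower and 0.0438% in either direction. At an unadjusted p under 0.05 there were 442 members, or 10.2% against 10.8% of all tested probes. The probe for DQ605573 had signals of 2.61, 1.93 and 3.33 in Wistar and 62.2, 42.1 and 25.2 in GK. DQ603001 had 5.06, 2.25 and 4.67 in Wistar and 37.8, 40.5 and 31.5 in GK. Both were detected on every GK array but nowhere in Wistar, and the strains did not overlap. As the Wistar signals are not well above background, they give only a bound: in GK, DQ605573 was higher by at least 5.27-fold, and the bound for DQ603001 was at least 4.75-fold. The adjusted p in limma was 0.0234 for DQ605573 and 0.0311 for DQ603001. Both entered the test only through the GK arrays, where they are high. With no filter on dim probes neither passed, with an adjusted p in limma of 0.164 and 0.204, and the count of members past the threshold was 0.

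Both calls ended when any single array except GK 1 was left out, with adjusted p in limma between 0.0604 and 0.167 for DQ605573 and between 0.0736 and 0.222 for DQ603001. They also ended with the slide as a fixed block, which sets GK 1 alone against its Wistar slide mates (adjusted p 0.252 and 0.414). With the slide as a random block both passed (adjusted p 0.0245 and 0.0481), and 2 members passed in all. With normexp, whose offset of 50 shrinks differences between dim probes, the log2 differences were 1.06 (adjusted p 0.0384) and 0.89 (0.0753). Without GK 1, when strain and slide coincide, 8 members passed.

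Detection on all arrays of a strain and on none of the other held for 25 DQ6 probes in GK and 15 in Wistar, or 0.165% and 0.0987% of the block. Over all non-control probes it was 0.16% and 0.11%. Among the 25, DQ611669 had signals of 3.75, 5.36 and 5.97 in Wistar and 22.9, 58.7 and 42.5 in GK, at least 5.03-fold higher, without passing (adjusted p 0.115 in limma). DQ623468 was at least 2.74-fold higher in GK (6.78, 4.83 and 2.61 in Wistar against 16.4, 53.2 and 10.6) and DQ623728 at least 2.58-fold. Their adjusted p was 0.357 and 0.0561 in limma. Other members seen in GK alone had smaller bounds, with folds of at least 2.21 for DQ612238, 2.02 for DQ604924, 1.85 for DQ618392 and 1.64 for DQ606984. Their adjusted p in limma was 0.0561, 0.0841, 0.0579 and 0.146, in that order. All the probes named here entered the test only through the GK arrays, where they are high. With no filter on dim probes their adjusted p in limma ran from 0.281 for DQ612238 and DQ623728 to 0.57 for DQ623468.

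Of the 15 seen in Wistar alone, DQ619820 had the largest bound, at least 3.07-fold lower in GK. Its signals were 29.9, 31.8 and 64.4 in Wistar and 9.65, 12.3 and 3.23 in GK. DQ602166 was at least 1.94-fold lower, DQ602949 1.86-fold, DQ621405 1.79-fold and DQ621204 1.67-fold. None of the 5 passed, with adjusted p between 0.39 and 0.434 in limma. These 5 entered the test only through the Wistar arrays, where they are high. Their GK signals ran from 1.92 to 12.3, where the lowest signal called on the GK arrays was 8.07 to 10.6. With normexp the 5 differences lay between -0.31 and 0.03, and the sign turned for DQ602949 and DQ621204. Its offset shrinks differences at such dim signals, and what turned the 2 signs was not tested.

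Among the members with the smallest p, DQ624208 and DQ623418 were detected on all 6 arrays and higher in GK. DQ624208 had signals of 112, 88.1 and 66.4 in Wistar and 278, 414 and 444 in GK, a log2 difference of 2.48 (SE 0.36, adjusted p 0.111 in limma). With normexp its difference of 1.83 passed (adjusted p 0.0384 in limma), as did that of 2.84 without GK 1 (0.0475). DQ623418 had 14.5, 12.0 and 12.3 in Wistar and 42.3, 32.1 and 19.7 in GK, a difference of 1.60 (SE 0.26, adjusted p 0.15). For both the groups did not overlap.

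On the lower side no member passed, and the smallest adjusted p was 0.357. DQ609412 had signals of 618, 955 and 803 in Wistar and 323, 34.8 and 46.6 in GK. Its log2 difference of -2.89 (SE 0.71, adjusted p 0.357 in limma) was -1.19 on GK 1 and -3.74 on the slide 2 arrays, and it passed without GK 1 (0.0475). DQ610882 had 64.5, 139 and 133 in Wistar and 27.3, 27.0 and 23.4 in GK, a difference of -1.65 (SE 0.40, adjusted p 0.357). Both were detected on all 6 arrays and did not overlap between the strains. DQ602956, DQ607853, DQ608602, DQ613615, DQ622649 and DQ627476 were detected on all Wistar arrays and on 1 or 2 GK arrays. Their log2 differences ran from -2.43 for DQ613615 to -1.06 for DQ622649, and from -0.36 to 0.09 with normexp. The sign turned for DQ622649. The normexp offset shrinks differences at such dim signals, and normexp also used median spot and background signals. The part of each in these changes was not tested.

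A looser criterion asked for a fold of at least 1.5 together with an unadjusted p under 0.05. By it 342 DQ6 probes were higher in GK and 94 lower, which is 7.87% and 2.16% of those tested, against 7.9% and 2.77% of all tested probes. In either direction it was 10.03% of the members and 10.7% of all tested probes. The direction of this set turned with the scaling between arrays. There were 152 members higher and 193 lower with quantile normalization, and 158 and 241 with the values of the authors' deposited matrix. Without scaling the counts were 95 and 361, and with a 75th percentile taken over every non-control probe 65 and 382. The counts were 635 and 242 without GK 1, 176 and 50 without GK 2, 210 and 34 without GK 3, and 220 and 46 without Wistar 2. Without Wistar 3 they were 372 and 99. The groups did not overlap for 569 members with GK higher (13.1%, against 12.5% of all tested probes) and for 208 with GK lower (4.80%, against 5.2%).

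The median log2 difference was 0.16 over the tested DQ6 probes, 0.17 over the remaining tested DQ probes and 0.17 over all tested probes. For a probe with 6 values, unscaled signals shift the difference by -0.38, and scaling to all non-control probes shifts it by -0.48. The size of the difference varied with brightness. The 86 tested members with a mean signal under 10 had a median difference of -0.01. Members with a mean signal of 10 to 100 had a median difference of 0.23, with 278 of 3082 higher and 59 lower at the looser criterion. Between 100 and 1000 the median was 0.03, with 40 of 864 higher and 24 lower. Between 1000 and 10000 it was -0.04, with 8 of 237 higher and 7 lower. Above 10000 it was 0.20, with 9 of 66 higher and 0 lower. The medians of the remaining DQ probes in the 4 classes from a signal of 10 upward were 0.23, 0.01, -0.06 and 0.21. Among the remaining DQ probes of 10 to 100, 426 of 5104 were higher and 110 lower at the looser criterion. In the class of 100 to 1000 it was 81 of 1270 higher and 76 lower. Between 1000 and 10000, 7 of 313 were higher and 13 lower, and above 10000, 12 of 72 were higher and 2 lower. Whether block and background differ by class was not tested. Either of the shifts named above puts all these class medians of the block below 0.

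Some always detected members were at the same scaled level in both strains. The 3 with the smallest differences were DQ608501, DQ617164 and DQ607065, all within 0.001 of 0 on the log2 scale. DQ607065 had signals of 33098, 21702 and 20448 in Wistar and 22867, 20336 and 14240 in GK. DQ608501 had 717, 582 and 730 in Wistar and 628, 419 and 522 in GK. DQ617164 had 50.3 to 91.1 in Wistar and 47.1 to 51.7 in GK. The strains overlapped for each, the SE of the 3 differences was 0.24 to 0.29, and their sign turned with the scaling.

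The authors' deposited table lists 123 DQ6 probes, 53 higher and 70 lower in GK, all with an unadjusted p up to 0.05 and a fold of 2 or more. These are 0.739% and 0.976% of the 7174 members in the deposited matrix, against 0.695% and 1.19% of all its probes. No Wistar array detected 23 of the 53 higher ones, and no GK array detected 30 of the 70 lower ones. Over the authors' whole list it was 56 of 128 and 77 of 219. On GK 2 5.98% of the members in the matrix sat at that array's lowest value, against 21.9% to 27.3% on the other arrays. Of the 123, 91 were tested here, all 91 in the listed direction and 74 at an unadjusted p under 0.05, on the same arrays the authors used. Of the whole list of 347, 270 were tested, all in the listed direction and 228 at that p. The largest upward folds in the authors' deposited table belong to DQ605573 (8.39), DQ603001 (7.19) and DQ611669 (6.91). The largest downward folds there are 7.87 for DQ609412, 6.10 for DQ602956 and 5.51 for DQ619820. After Benjamini-Hochberg adjustment the methods' unpaired test on the matrix left 0 members, and 1 of all 18419 probes in the matrix. In that test 436 of the 7174 members had an unadjusted p of at most 0.05, against 1141 of the 18419 probes. Limma on the matrix values left 2 members.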

How the data were processed

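Short RNAs in rat islet total RNA were measured on 6 one-colour arrays, labelled at the 3' end with Cy3 by RNA ligase per the labels' protocols. Per the file headers, Agilent Feature Extraction 11.0.1.1 made the deposited spot intensity values. Its processed intensity is background-subtracted within an array, and not normalized between arrays. The deposited matrix and table hold the authors' log2 intensities by a method not given in the sources used here. The deposited table also holds their fold (a ratio) and p-value of an unpaired test. Each member has 1 spot. Outlier-flagged spots, 0 to 26 members per array, were dropped as missing values. A probe was fitted if at least 3 of the 6 arrays called it well above background. The fit (R 4.3.3; limma 3.58.1, lmFit then eBayes) had no term besides strain. All non-control probes entered the fit and the Benjamini-Hochberg adjustment (threshold 0.05). Every adjusted p without another name comes from it. A bound sets the brighter mean against the mean, per array, of the higher of the probe's own signal and the lowest signal called there. Normexp used median spot and background signals. Its offset of 50 is added to every signal, which shrinks log2 differences between dim probes. The fit was tested on simulated data with independent normal noise and no slide effect, which cannot show how it performs on these arrays. Arrays of a common scan count as a slide, since array positions recur between the 2 scans. The deviations of same-numbered samples correlated at -0.03, 0.04 and 0.04. With 3 samples per strain this cannot show whether the numbers pair them, and the main fit left them unpaired. The array number limits the precision. The members and lists were chosen with earlier results of these data known. Named probes were all members past the adjusted threshold, the 10 smallest p in each direction, and the 5 brightest per strain. They also included up to 5 per direction detected in a single strain, the authors' 3 largest folds per direction and the 3 smallest differences. Alternatives covered scaling, background, filters, variance model, slide, replicate number and single arrays, and the fit within slide 1 was chosen after seeing the data. Probe sequences were not used here.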

Additional observations from a re-analysis of the deposited data

How the results depend on the processing

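The number of DQ6 probes past the adjusted threshold, 2 in limma, was 0 in each of these fits: without moderation, with no filter on dim probes, over probes detected on all 6 arrays, with quantile normalization, with slide as a fixed block, and within slide 1. It was 4 with scaling to all non-control probes and 0 to 8 when a single array was left out. With the replicate number as a block it was 0, with 350 members higher and 107 lower at the looser criterion, and not every sample correlated best with its own number. The looser counts of 342 higher and 94 lower became 204 and 41 without moderation, 103 and 45 within slide 1, 104 and 44 with slide as a fixed block, 95 and 361 without scaling, and 65 and 382 with scaling to all non-control probes. They became 152 and 193 with quantile normalization and 158 and 241 on the authors' matrix. With no filter on dim probes the counts were 853 and 113, but of 15191 members tested, against 4348 in the main fit. The higher count was 143 with normexp, and the lower count was 50 with slide as a random block. Leaving out 1 array gave 176 to 635 higher and 34 to 242 lower. The median difference of 0.16 became -0.10 on the authors' matrix, 0.40 with no filter, -0.22 without scaling, -0.32 with that all-probe scaling and -0.094 with quantile normalization. With 1 array left out, the detection gap between block and background ranged from 0.408 to 0.762 points and the level gap from 0.109 to 0.136. Each had an exact sign permutation p of 0.0625, the smallest that 5 arrays allow. With the scanner's call of a positive and significant signal in place of well above background, the detection gap was 1.94 points (exact sign permutation p = 0.0312). The strain difference in detection was then 7.34 points (exact group permutation p = 0.4). The level gap was 0.0096 with normexp and 0.11 within slide 1 (exact p 0.125 in both, the smallest for 4 arrays in the second). The normexp offset of 50 shrinks this gap by itself, so the first value cannot test it.

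Of 673 alternatives for 33 named probes, 585 kept direction and call, 59 turned the sign, 23 lost a call and 6 gained one. Only DQ605573 and DQ603001 had a call to lose, and all 23 losses were theirs, over most of their alternatives. For the other named probes, keeping the call meant staying without one. The sign turned for the 3 smallest differences, the 6 brightest probes and 3 dim probes. Without scaling the differences were -0.38 for DQ607065, DQ608501 and DQ617164, -0.24 for DQ610113, -0.0045 for DQ611605, -0.23 for DQ614395, -0.15 for DQ614404 and -0.32 for DQ617231. With scaling to all non-control probes they were -0.48 for DQ607065, DQ608501 and DQ617164, -0.34 for DQ610113, -0.10 for DQ611605, -0.030 for DQ611922, -0.32 for DQ614395, -0.25 for DQ614404 and -0.42 for DQ617231. Quantile normalization gave -0.20 for DQ607065, -0.16 for DQ617164, -0.069 for DQ614395, -0.016 for DQ614404 and -0.15 for DQ617231. The authors' matrix gave -0.19 for DQ607065, -0.17 for DQ617164, -0.035 for DQ614395 and -0.10 for DQ617231. With normexp the values were -0.072 for DQ607065, -0.048 for DQ608501, -0.066 for DQ617231, 0.031 for DQ602949, 0.0082 for DQ621204 and 0.092 for DQ622649. Both within slide 1 and with slide as a fixed block they were -0.015 for DQ607065 and DQ608501, -0.37 for DQ617164, -0.19 for DQ614395 and -0.094 for DQ614404. With slide as a random block they were -0.0019 for DQ607065, -0.0022 for DQ608501 and -0.054 for DQ617164. With outlier spots kept they were -0.00021 for DQ607065, -0.00042 for DQ608501 and -0.00037 for DQ617164. Leaving out 1 array gave -0.11 to 0.13 for DQ607065, -0.11 to 0.10 for DQ608501, -0.15 to 0.19 for DQ617164 and -0.042 to 0.16 for DQ617231. The fit within slide 1 was chosen after seeing the data. The cause of these changes was not tested, apart from the constant shift between scalings. Slide and strain overlap in part, since 2 of 3 GK arrays form slide 2, and signals near the lowest called value limit the dim probes.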
